A study of Homo sapiens with 6 samples.

Results

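The genes of glycolysis and of the hypoxia response were examined in H460 cells, a human non-small-cell lung cancer line, after siRNA depletion of the long intergenic non-coding RNA *HKlincR1* (AC093323.3). The set holds 33 genes of the 57773 genes listed in the deposited expression table. Its members are 3 transporters of hexose and lactate, 17 isozymes of the glycolytic steps and of lactate dehydrogenase, 3 regulators of glycolytic flux and 10 genes known to respond to low oxygen. They were chosen by gene symbol and matched by Ensembl identifier, and the rule that finds them uses no measured value. The choice was, however, made with earlier results of these data known.

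The study compared siNT, a non-targeting control siRNA, with siHKlincR1, the siRNA duplex si*HKlincR1*_2 against *HKlincR1*. Both were transfected at 50 nM and the cells were collected after 48 hours. Each group had 3 polyA RNA-seq libraries, described by the labels as biological replicates. One cell line and 1 duplex were sequenced, so an effect of the duplex other than through *HKlincR1* and an effect of *HKlincR1* cannot be told apart here. The sources used here name no low-oxygen treatment of any library.

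Glycolysis splits glucose into pyruvate, and lactate dehydrogenase then turns pyruvate into lactate, which leaves the cell through monocarboxylate transporters. Many of these steps are served by several isozymes encoded by separate genes. When oxygen is scarce, hypoxia-inducible factors (HIFs) bind DNA at short motifs with the core ACGTG or GCGTG and raise transcription of glucose transporters, glycolytic enzymes and other target genes. Cancer cells, lung carcinoma included, often express glycolytic enzymes at high levels with oxygen present.

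The library totals, worked back from the RPKM values (reads scaled to the length of the gene model and to the size of the library), ranged from 24980280 to 30521000 reads. The 33 genes together took 1.75% to 1.77% of the reads of a siNT library and 1.43% to 1.65% of those of a siHKlincR1 library. *HKlincR1* itself had 3.62, 3.47 and 3.83 RPKM with siNT and 0.563, 0.628 and 0.390 RPKM with siHKlincR1. Its mean was thus 85.5% lower (log2 fold change -2.59, standard error 0.17, limma adjusted p = 0.00245). The epithelial keratins KRT8 and KRT18 had at least 28.1 RPKM in every library, while EPCAM, another epithelial marker, had at most 0.110 RPKM. Of the markers of other cell types, PTPRC, CD3E and COL1A2 had at most 0.0691 RPKM and COL1A1 had 0.998, 1.08 and 1.23 RPKM with siNT and 0.548, 0.419 and 0.773 RPKM with siHKlincR1. COL1A1 was thus lower in every knockdown library than in any control (log2 fold change -0.85, limma adjusted p = 0.196), and its part in the values of the 33 genes was not tested. PECAM1 was not analysed here. In RNA from a whole culture, fewer cells expressing a gene and less of its RNA per cell cannot be told apart.

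A pair of libraries stood apart. On the log2 scale over all tested genes, siHKlincR1 replicate 3 correlated with the siNT libraries at 0.979 to 0.982 and with its own group at 0.972 and 0.977. siNT replicate 3 correlated with the other siNT libraries at 0.979 and 0.980, against 0.986 between those. Values without these libraries are given where they alter a result.

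The sense strand of the duplex is known, and the guide strand below is its reverse complement. It is shown because a guide can repress other transcripts through its seed (bases 2 to 8, in capitals). The duplex carried the ON-TARGETplus modification.

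siHKlincR1_2 guide: aAGCACACgaguauacuuc

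A match to this seed, the 7 bases GTGTGCT on the transcript's strand, was found in the 3′ UTR of 6 of the 33 genes (18.2%), against 1513 of 10765 tested genes with a 3′ UTR (14.1%). The 6 were BNIP3, ENO2, HK1, PDK1, PFKFB4 and SLC2A3. PDK1 held 2 matches and the others 1 each. A match is a description of the sequence, and whether it has a part in any value below was not tested. The windows of the pair with the largest differences between groups, ENO2 (chr12:7032285-7032314, plus strand) and PFKFB4 (chr3:48555670-48555699, minus strand), are given on GRCh37 with the match in capitals.

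ENO2 3′ UTR: cgtcagggttgGTGTGCTgaggtgttagag

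PFKFB4 3′ UTR: ctctcatccttGTGTGCTgctctgctaaga

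The members spanned a wide range of expression. In siNT, 8 of them averaged above 100 RPKM, all of them enzymes of the pathway, and 12 averaged below 10 RPKM. GAPDH, glyceraldehyde-3-phosphate dehydrogenase, was the most abundant at 1454 ± 15.2 RPKM (SD, n = 3), and ranked 17 of the 15451 tested genes. It was followed by the enolase ENO1 at 592 ± 22.1 RPKM, the pyruvate kinase PKM at 338 ± 24.6 RPKM, the lactate dehydrogenases LDHA at 280 ± 8.64 RPKM and LDHB at 240.3 ± 4.91 RPKM, and the aldolase ALDOA at 196 ± 3.63 RPKM. No siNT library of any of these 6 overlapped the next in the order, whereas the next neighbours PGK1 and TPI1 overlapped. In the whole order of 33, 19 of 32 neighbouring pairs overlapped over the siNT libraries. The hypoxia response genes were mostly low, and CA9 was the lowest member at 1.67 ± 1.03 RPKM.

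**Figure D1:**
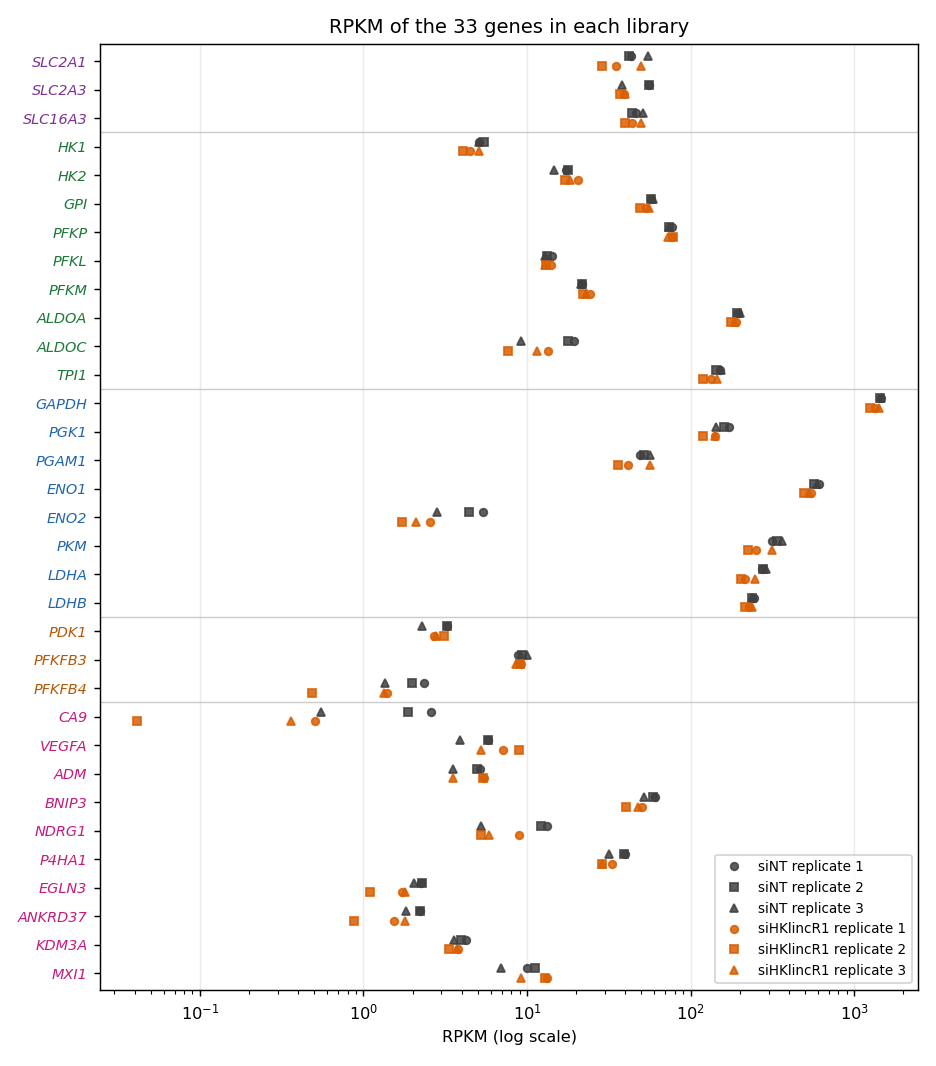
RPKM of each of the 33 genes (log axis) in the 3 siNT libraries (dark) and the 3 siHKlincR1 libraries (orange), with a marker shape for each replicate and label colours for the 5 gene groups. GAPDH lies above all other members in each of the 6 libraries, and CA9 reaches 0.0414 RPKM in siHKlincR1 replicate 2.

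Between siNT and siHKlincR1, none of the 33 genes passed the call rule, which asked for both an adjusted p below 0.05 and a difference of more than 1.5-fold. All 33 averaged 0.5 RPKM or more over the 6 libraries, the minimum for a test. CA9 met that minimum through the siNT group, since it averaged 0.302 RPKM with siHKlincR1. Its place among the lower members in the counts below thus follows in part from the filter and adds no support of its own. Over all 15451 tested genes, 0.356% were called lower and 0.00647% higher (0.362% in all), that is 55 and 1 genes. The paper, with another test (edgeR) at the same thresholds, reported more genes, and more of them up than down. The members called were also 0 with limma on the reads worked back (voom) and with a block for the replicate number. With the block, 1.32% of all genes were called, 125 lower and 79 higher, so the balance of directions depended on the fit. At an unadjusted limma p under 0.05, 10 members were lower and 0 were higher, against 9.19% and 7.04% of all genes. With the block these counts were 13 and 2, against 14.0% and 12.3%.

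The estimates of the members lay mostly on the lower side. The log2 fold change was below 0 for 27 of the 33 (81.8%) and above 0 for 6, against 49.8% below 0 over all tested genes. The median over the members was -0.18, and over all tested genes it was 0.0011. All 3 siHKlincR1 libraries were below all 3 siNT libraries for 13 members (39.4%), against 11.9% of all genes, and above them for 1, PFKM, against 10.1% of all genes. In all 3 same-numbered pairs of libraries the knockdown value was lower for 20 members, against 25.2% of all genes, and higher for 3, PFKM, VEGFA and MXI1, against 24.0%. The remaining 10 differed in sign between pairs. CA9, tested through its siNT values, is among the lower members in each of these counts. The members share libraries and many are co-regulated, so they are not independent measurements of the knockdown.

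The sizes were small. Only CA9, ENO2, PFKFB4 and ANKRD37 were lower by more than 1.5-fold on the log2(RPKM + 0.1) scale, and 0 members were higher by that much. With 1 library left out, between 2 (without siHKlincR1 replicate 2) and 7 (without siHKlincR1 replicate 1) members were lower by that much, CA9 and ENO2 in each such fit. PFKFB4 and ANKRD37 dropped out without siHKlincR1 replicate 2, at -0.41 and -0.31, and ALDOC (-0.80) and NDRG1 (-0.97) came in without siNT replicate 3. VEGFA was higher by more than 1.5-fold without siHKlincR1 replicate 3. For 20 members, 13 of the 17 enzymes among them, the whole 95% interval of the fold change lay within 1.5-fold of no change. For the other 13 the interval reached beyond it, so a change of that size in these genes is within the error of the estimate.

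**Figure D2:**
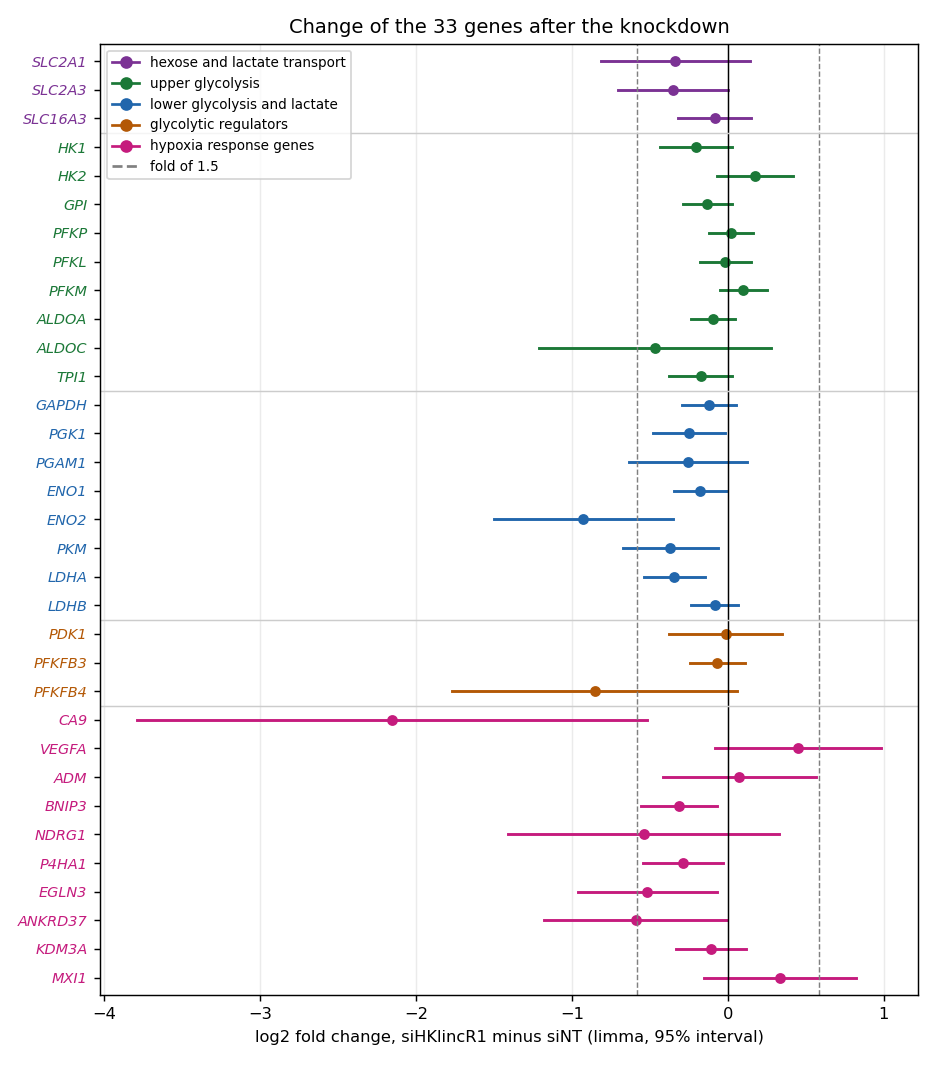
Log2 fold change (siHKlincR1 minus siNT) of each member with its 95% interval from limma, coloured by gene group, and dashed lines at a fold of 1.5 in either direction. Most points lie left of 0, from -2.15 for CA9 to 0.45 for VEGFA, and the intervals of 10 members end below 0, none of which passed the adjustment over all genes.

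The 3 transporters averaged lower with siHKlincR1 and none passed the test (median log2 fold change -0.34). SLC2A1, the glucose transporter GLUT1, had 43.2, 42.3 and 55.3 RPKM with siNT and 34.8, 28.9 and 49.8 RPKM with siHKlincR1. Replicate 3 was the highest library of each group, so the groups overlapped although each knockdown library was below the control of its own number. The log2 fold change was -0.34 (standard error 0.20, limma adjusted p = 0.429, and 0.0916 with the block). It was -0.16 without siHKlincR1 replicate 2, -0.21 without siNT replicate 3 and -0.55 without siHKlincR1 replicate 3 (limma adjusted p = 0.0658 in the last). SLC2A3, the high-affinity glucose transporter GLUT3, had 55.8, 56.0 and 38.0 RPKM with siNT and 39.3, 36.9 and 39.5 RPKM with siHKlincR1. Here siNT replicate 3 was at the level of the knockdown libraries. Without it, the log2 fold change of SLC2A3 was -0.53 (limma adjusted p = 0.0846), against -0.35 with all libraries (adjusted p = 0.31). SLC16A3, the lactate exporter MCT4, differed least of the 3 (log2 fold change -0.08, 95% interval -0.32 to 0.15).

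The upper steps, from hexokinase to triose phosphate isomerase, were near 0, with a median log2 fold change of -0.09 over 9 genes and 6 of them below 0. The phosphofructokinases catalyse the committed step. PFKP had a log2 fold change of 0.02 (95% interval -0.12 to 0.16) and PFKL one of -0.01 (95% interval -0.18 to 0.15). PFKM was the one member for which all siHKlincR1 libraries (24.4, 22.0 and 23.1 RPKM) lay above all siNT libraries (21.8, 21.7 and 21.3 RPKM), and had an estimate of 0.10 (log2 fold change, limma adjusted p = 0.453). PFKM overlaps SENP1 on the opposite strand. The hexokinases, which trap glucose in the cell, had estimates of opposite sign, -0.20 for HK1 and 0.17 for HK2. HK1 had 5.08, 5.44 and 5.12 RPKM with siNT and 4.46, 4.07 and 5.06 RPKM with siHKlincR1, and HK2 averaged 16.5 and 18.6 RPKM.

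GPI, glucose-6-phosphate isomerase, and ALDOA were lower in all 3 knockdown libraries than in any control, by log2 fold changes of -0.13 and -0.09 (limma adjusted p = 0.358 and 0.455). TPI1, triose phosphate isomerase, differed by -0.17, with 1 knockdown library among the controls. ALDOC, the aldolase typical of brain, had 19.4, 17.7 and 9.17 RPKM with siNT and 13.4, 7.65 and 11.6 RPKM with siHKlincR1. The spread within each group was as wide as the difference between them (log2 fold change -0.47, standard error 0.32, and -0.80 without siNT replicate 3 or -0.24 without siHKlincR1 replicate 2), and the replicate 3 pair had the opposite sign.

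The lower steps, from GAPDH to lactate dehydrogenase, had the most uniform direction. All 8 genes had a log2 fold change below 0 (median -0.25) and all 8 were lower in each of the 3 pairs. For 6 of them, GAPDH, PGK1, ENO1, ENO2, LDHA and LDHB, the groups did not overlap, against 11.9% of all tested genes lower in this way. For PKM and PGAM1, siHKlincR1 replicate 3 lay among the controls. siHKlincR1 replicate 2 was the lowest of the 6 libraries for all 8.

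LDHA, which makes lactate from pyruvate, had the lowest adjusted p of the 33. Its level was 275, 276 and 290.2 RPKM with siNT and 215, 204 and 246 RPKM with siHKlincR1. Every knockdown library was below every control (log2 fold change -0.34, standard error 0.08, 95% interval -0.54 to -0.15, limma adjusted p = 0.168). Blocking on the replicate number brought its adjusted p in limma to 0.0493, past the threshold for p, at a fold change below 1.5. By that p alone, 1.72% of all genes were lower and 1.2% higher with the block, and LDHA was the one member among them. LDHB, the isozyme that favours the reverse reaction, had a log2 fold change of -0.08 (95% interval -0.23 to 0.07).

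PKM, the last step to pyruvate, had 314, 337 and 363 RPKM with siNT and 250.5, 225 and 315 RPKM with siHKlincR1 (log2 fold change -0.37, limma adjusted p = 0.262). PGAM1, phosphoglycerate mutase, had 49.1, 51.6 and 56.7 RPKM with siNT and 41.4, 36.0 and 56.7 RPKM with siHKlincR1. Single libraries decided these values. Without siHKlincR1 replicate 3, the library that stood apart, LDHA (log2 fold change -0.42), PKM (-0.51) and PGAM1 (-0.44) reached limma adjusted p values of 0.0284, 0.0322 and 0.0452. In that fit 4.56% of all genes were lower and 2.97% higher at an adjusted p below 0.05. None of the 3 differed by more than 1.5-fold. Without siHKlincR1 replicate 2 instead, the adjusted p was 0.374, 0.53 and 0.803.

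GAPDH, often used as a reference gene, had 1465, 1437 and 1461 RPKM with siNT and 1349, 1255 and 1413 RPKM with siHKlincR1. The groups did not overlap, and the log2 fold change was -0.12 (95% interval -0.30 to 0.05). PGK1, phosphoglycerate kinase, differed by -0.25 and ENO1 by -0.18 (limma adjusted p = 0.295 and 0.292). Summed over the 17 enzymes, the share of library reads was 1.603%, 1.584% and 1.624% with siNT and 1.412%, 1.298% and 1.507% with siHKlincR1, and the groups did not overlap (exact two-sided permutation test, which gives p = 0.10 for any groups of 3 that do not overlap, its smallest value).

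ENO2, the neuronal enolase, had the largest difference among the enzymes. It had 5.37, 4.40 and 2.83 RPKM with siNT and 2.54, 1.71 and 2.09 RPKM with siHKlincR1, on 212 to 638 reads. The lowest control was above the highest knockdown library (log2 fold change -0.93, standard error 0.24, limma adjusted p = 0.182, and 0.0637 with the block). Its 3 pairs differed by -1.05, -1.31 and -0.42.

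Of the 3 regulators, PFKFB4 differed most. The PFKFB enzymes set the level of fructose 2,6-bisphosphate, which activates phosphofructokinase. PFKFB4 had 2.34, 1.99 and 1.35 RPKM with siNT and 1.39, 0.483 and 1.34 RPKM with siHKlincR1. One knockdown library overlapped the controls, and siHKlincR1 replicate 2 was far below the rest. The log2 fold change was -0.85 (standard error 0.39, limma adjusted p = 0.328) and was -0.41 without that library. PFKFB3 had a log2 fold change of -0.07. PDK1, which restrains the entry of pyruvate into mitochondria, had one of -0.01 with the highest adjusted p of the members (0.97 from limma).

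The 10 hypoxia response genes were divided, with 7 log2 fold changes below 0, 3 above and a median of -0.30. CA9, a membrane carbonic anhydrase and a classic marker of HIF activity (chr9:35673925-35681156, plus strand, GRCh37), had the largest estimate of all members. It had 2.59, 1.88 and 0.551 RPKM with siNT (120, 96 and 23 reads) and 0.505, 0.0414 and 0.360 RPKM with siHKlincR1 (24, 2 and 18 reads). The groups did not overlap, but siNT replicate 3 lay next to the knockdown libraries, and siHKlincR1 replicate 2 was at or under the floor of 3 reads. The log2 fold change was -2.15 (standard error 0.69, limma adjusted p = 0.237) and its size depended on the pseudocount, from -0.97 at 1 RPKM to -2.71 at 0.01 RPKM. Without siHKlincR1 replicate 2 it was -1.52 (limma adjusted p = 0.483).

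With CA9, 5 of the 10 hypoxia response genes were lower at an unadjusted p under 0.05 and 0 were higher, against 9.19% and 7.04% of all genes. CA9 met the minimum for a test through the siNT group, so it adds no support to this count or to the next. With the block, 4 were lower and 2, VEGFA and MXI1, were higher, against 14.0% and 12.3%. BNIP3, a mitophagy receptor, had 60.2, 59.2 and 51.9 RPKM with siNT and 50.3, 40.3 and 47.6 RPKM with siHKlincR1 (log2 fold change -0.31, limma adjusted p = 0.242). EGLN3, a prolyl hydroxylase that marks HIF subunits for degradation, had 2.26, 2.29 and 2.05 RPKM with siNT and 1.72, 1.10 and 1.803 RPKM with siHKlincR1 (log2 fold change -0.52). ANKRD37, a small ankyrin-repeat protein, had 2.21, 2.22 and 1.82 RPKM with siNT and 1.54, 0.871 and 1.79 RPKM with siHKlincR1 (log2 fold change -0.59). In these 3 genes the groups did not overlap, and siHKlincR1 replicate 2 was the lowest library in each. Without it, EGLN3 was at -0.30 and ANKRD37 at -0.31. P4HA1, a collagen prolyl hydroxylase, had a log2 fold change of -0.29 and groups that overlapped.

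VEGFA and MXI1 had estimates in the other direction. VEGFA, the angiogenic growth factor, had 5.75, 5.80 and 3.87 RPKM with siNT and 7.16, 8.95 and 5.24 RPKM with siHKlincR1. MXI1, an antagonist of MYC, had 10.0, 11.1 and 6.95 RPKM with siNT and 13.3, 12.9 and 9.18 RPKM with siHKlincR1. For both, each knockdown library was above the control of its own number, while replicate 3 of each group was its lowest library and the groups overlapped. Their log2 fold changes were 0.45 and 0.33 (limma adjusted p = 0.358 and 0.44, and 0.0569 and 0.0652 with the block). Without siNT replicate 3 they were 0.26 and 0.14, without siHKlincR1 replicate 2 VEGFA was at 0.27, and without siHKlincR1 replicate 3 they were 0.65 and 0.50. ADM, the vasodilator peptide adrenomedullin, had a log2 fold change of 0.07. NDRG1, a stress-responsive gene, had 13.3, 12.2 and 5.20 RPKM with siNT and 8.91, 5.23 and 5.84 RPKM with siHKlincR1, and its siNT replicate 3 was the lowest of the 6 libraries. KDM3A, a histone demethylase, had a log2 fold change of -0.11.

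The libraries differed in these genes within groups as well as between them. siNT replicate 3 was the lowest of the 3 controls for all 10 hypoxia response genes and for 20 of the 33 members, against 6329 of the 15451 tested genes. siHKlincR1 replicate 2 was the lowest of the 3 knockdown libraries for 26 members, against 37.1% of all tested genes, and the lowest of all 6 libraries for 23 of 33, against 3967 of 15451. The median difference within pairs was -0.18 for replicate 1, -0.26 for replicate 2 and -0.02 for replicate 3. The median log2 fold change of the members stayed below 0 without each library in turn, from -0.24 without siHKlincR1 replicate 3 to -0.11 without siHKlincR1 replicate 2. What sets these libraries apart was not tested.

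**Figure D3:**
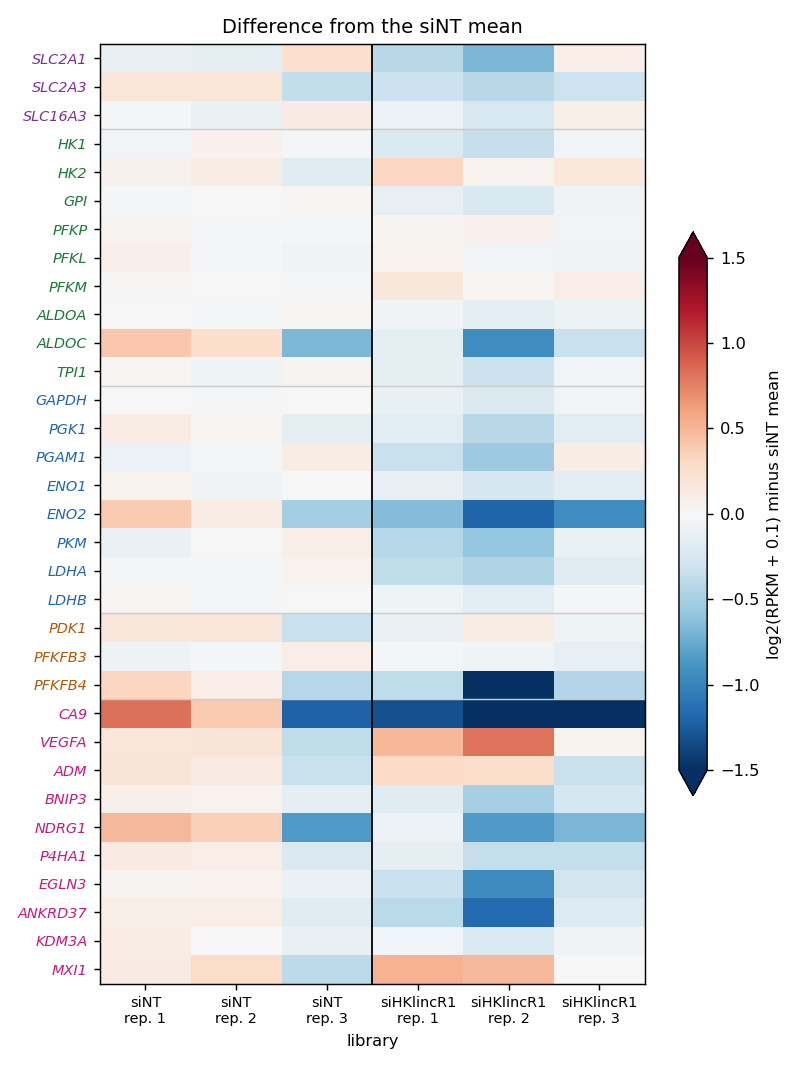
Difference of each library from the siNT mean on the log2(RPKM + 0.1) scale for the 33 genes, with blue below and red above that mean and colours ending at 1.5 in either direction. The siHKlincR1 replicate 2 column is the bluest, with a median of -0.33, siHKlincR1 replicate 3 has a median of -0.07, and siNT replicate 3 is below the other controls for all 10 hypoxia response genes.

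Because RPKM is scaled per length, isozymes of a family could be set against each other within a library. The length is that of the gene model, worked back as 6210 bases for LDHA and 2983 bases for LDHB. The level of a share thus depends on these lengths and is not a measured proportion of mRNA molecules. LDHA made up 52.8%, 53.8% and 54.9% of the summed RPKM of LDHA and LDHB with siNT and 48.37%, 48.74% and 51.002% with siHKlincR1, with no overlap. HK2 made up 77.2%, 76.6% and 73.96% of the 2 hexokinases with siNT and 82.1%, 80.7% and 78.5% with siHKlincR1, again with no overlap and in the other direction. ENO2 was a small part of the enolases, 0.867%, 0.766% and 0.477% with siNT and 0.467%, 0.344% and 0.392% with siHKlincR1. For these 3 shares the exact two-sided permutation test gave p = 0.10, the smallest value that 3 against 3 allow, and 0.3 after adjustment over the 9 shares compared. The groups overlapped for the other 6 shares. PFKP made up 68.1% of the phosphofructokinases with siNT and 67.5% with siHKlincR1, ALDOC 7.27% and 5.53% of the aldolases, SLC2A1 48.6% and 48.9% of the glucose transporters, and PFKFB4 16.8% and 10.6% of PFKFB3 and PFKFB4.

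**Figure D4:**
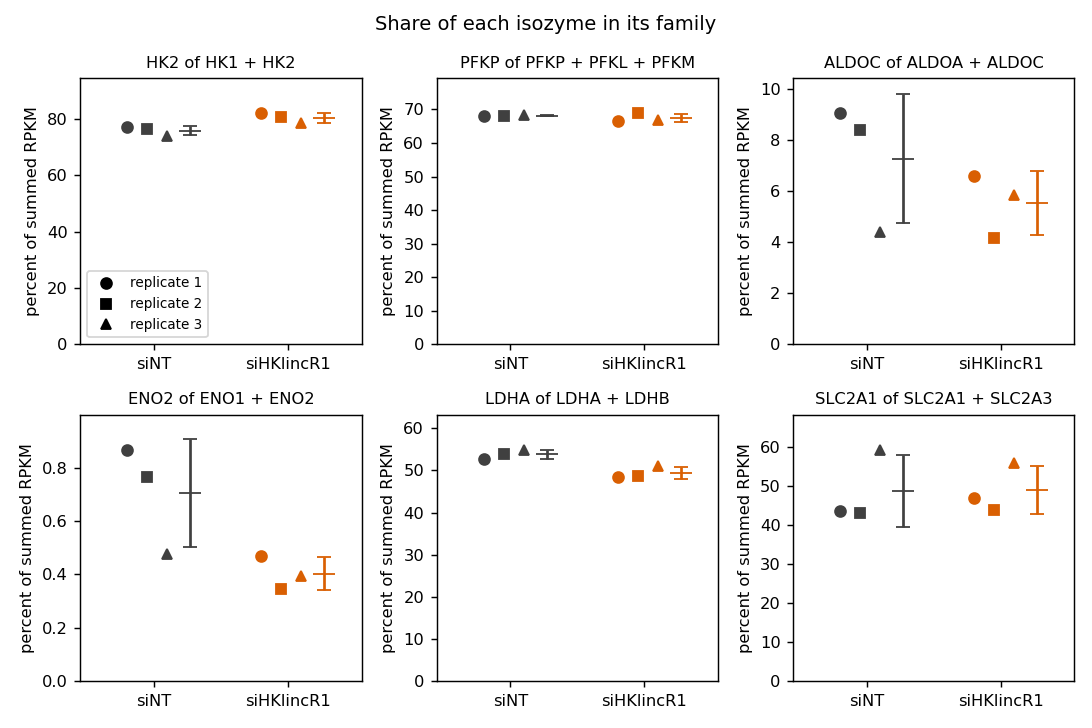
Percent of the summed RPKM of 6 isozyme families held by 1 isozyme in each library (points, with a shape for each replicate) and the mean with its SD (bars, n = 3), on axes that start at 0. The siHKlincR1 points lie below the siNT points for LDHA and ENO2 and above them for HK2, and overlap in the other panels.

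The promoters of the members were searched for the HIF core motifs ACGTG and GCGTG on both strands, in RefSeq windows of 300 bases (250 before and 50 after each start, GRCh38.p14). Of 59 member windows, 39.0% held ACGTG, against 21.4% of all 35116 windows and 25.8% of those of tested genes. GCGTG was in 42.4% of the member windows, against 36.5% of all and 49.5% of those of tested genes. Some members have many windows, so these shares are not over genes, and 8 of the 59 held ACGTG within the palindrome CACGTG, which other factors bind too. Such motifs are known from glycolytic promoters, and their presence is no measure of binding. VEGFA, SLC2A3 and NDRG1 were not part of the search. The windows below are those of the 3 members with the largest differences between groups, and 1 of LDHA, chosen after its low p was seen. They are written on the gene's strand with ACGTG and GCGTG, or their reverse complements, in capitals. They lie at chr9:35673678-35673977 (CA9, plus), chr12:6914330-6914629 (ENO2, plus), chr3:48556754-48557053 (PFKFB4, minus) and chr11:18394313-18394612 (LDHA, plus).

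CA9 promoter: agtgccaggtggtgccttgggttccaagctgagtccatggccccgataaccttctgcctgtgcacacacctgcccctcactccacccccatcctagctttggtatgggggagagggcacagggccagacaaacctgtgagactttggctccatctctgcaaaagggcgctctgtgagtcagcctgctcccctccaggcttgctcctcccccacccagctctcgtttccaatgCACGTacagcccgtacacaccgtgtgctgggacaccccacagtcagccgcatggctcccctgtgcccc

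ENO2 promoter: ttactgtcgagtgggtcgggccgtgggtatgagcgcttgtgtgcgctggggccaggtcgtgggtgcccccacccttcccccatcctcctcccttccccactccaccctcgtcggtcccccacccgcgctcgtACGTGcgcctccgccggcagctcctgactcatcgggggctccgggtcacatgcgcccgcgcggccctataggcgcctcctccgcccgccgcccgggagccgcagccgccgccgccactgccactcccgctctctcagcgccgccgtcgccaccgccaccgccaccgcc

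PFKFB4 promoter: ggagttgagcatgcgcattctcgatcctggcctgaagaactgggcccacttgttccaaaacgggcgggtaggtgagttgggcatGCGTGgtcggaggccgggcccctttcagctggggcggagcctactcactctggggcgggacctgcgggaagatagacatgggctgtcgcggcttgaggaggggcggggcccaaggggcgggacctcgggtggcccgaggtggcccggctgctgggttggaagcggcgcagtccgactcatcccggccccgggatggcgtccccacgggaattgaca

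LDHA promoter: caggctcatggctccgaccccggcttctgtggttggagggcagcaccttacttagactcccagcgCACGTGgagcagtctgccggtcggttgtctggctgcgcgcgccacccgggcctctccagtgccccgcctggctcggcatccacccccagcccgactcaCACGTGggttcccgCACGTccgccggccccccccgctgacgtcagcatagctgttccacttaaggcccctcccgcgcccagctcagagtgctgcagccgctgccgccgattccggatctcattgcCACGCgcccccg

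CA9 held 1 ACGTG and ENO2 held 1 ACGTG, PFKFB4 held 1 GCGTG, and this LDHA window held 5 ACGTG, counted on both strands and with 2 CACGTG palindromes that count on each, and 1 GCGTG. The other LDHA window searched (chr11:18396101-18396400, plus), not printed, held 0 ACGTG and 1 GCGTG.

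The machinery that controls the response is described from 15 genes, of which 14 were tested. None was called, and their median log2 fold change was 0.04. HIF1A, which encodes the main oxygen-regulated subunit, had 35.5, 40.6 and 37.3 RPKM with siNT and 36.5, 45.1 and 41.2 RPKM with siHKlincR1 (log2 fold change 0.11, 95% interval -0.11 to 0.34). Its protein is controlled by degradation, which these data do not measure. The largest estimates were those of ARNT2, a partner of the HIF subunits (-0.44), HIF1AN, the asparaginyl hydroxylase that blocks HIF activity (-0.40), and EPAS1, which encodes the HIF-2 alpha subunit (0.30). HIF1AN had 6.08, 6.22 and 6.09 RPKM with siNT and 4.38, 4.76 and 4.73 RPKM with siHKlincR1, with no overlap (limma adjusted p = 0.0948, 0.0504 with the block, 0.0368 with voom and 0.035 without siHKlincR1 replicate 3), at a fold change below 1.5 in each.

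Of 21 further HIF target genes, 20 were tested, 15 had an estimate below 0 and the median was -0.18. ERO1A fell and was, with all 6 libraries, the one gene called in any list examined here. ERO1A, an oxidase that forms disulphide bonds in the endoplasmic reticulum, had 21.3, 21.9 and 17.8 RPKM with siNT and 12.1, 12.4 and 10.7 RPKM with siHKlincR1 (log2 fold change -0.79, standard error 0.10, limma adjusted p = 0.0344). The 3 pairs differed by -0.81, -0.82 and -0.74, so replicate 3 differed by about as much as the others here. The call was lost with no filter on low values (limma adjusted p = 0.0675), with no variance trend (0.0932) and when any library but siHKlincR1 replicate 3 was left out (0.0524 to 0.201), with log2 fold changes between -0.88 and -0.72 over all 6 such fits. Its 3′ UTR held 0 matches to the seed of the guide. HILPDA, a lipid droplet protein, had 13.1, 13.0 and 10.6 RPKM with siNT and 8.34, 5.996 and 8.57 RPKM with siHKlincR1 (log2 fold change -0.69, limma adjusted p = 0.147), and it passed the call rule without siHKlincR1 replicate 3 (-0.78, limma adjusted p = 0.0435).

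Routes next to glycolysis gave 0 calls with all 6 libraries. Of 18 other isozymes and transporters of the pathway, 8 were expressed highly enough to be tested. ADPGK, the ADP-dependent glucokinase, had 15.2, 14.5 and 16.2 RPKM with siNT and 11.4, 10.6 and 10.6 RPKM with siHKlincR1 (log2 fold change -0.49, limma adjusted p = 0.0546, and 0.0418 with the block, at a fold change below 1.5). Its 3′ UTR held 1 match to the seed of the guide. HKDC1, a further hexokinase, was at 0.50 on this scale (adjusted p = 0.339 in limma). Without siHKlincR1 replicate 3 it passed the call rule, at 0.78 (adjusted p = 0.0328 in limma). PFKFB2 had a log2 fold change of -0.42. All 7 genes of the pentose phosphate pathway, which branches off at glucose 6-phosphate, were tested, with a median of 0.05 and 6 estimates above 0. RPIA, ribose 5-phosphate isomerase, had 15.4, 14.6 and 16.4 RPKM with siNT and 23.5, 20.9 and 21.0 RPKM with siHKlincR1 (log2 fold change 0.49, limma adjusted p = 0.0683, and 0.0432 with the block, at a fold change below 1.5). PGLS, which acts early in the branch, had a log2 fold change of 0.22. Of 12 genes for the entry of pyruvate into mitochondria, 11 were tested with a median of -0.10, and the largest estimates were those of PDK4 (-0.42), PDK3 (-0.40) and PDP1 (0.19).

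Near-identical copies and overlapping genes limit some of these values. Reads listed under named pseudogenes of TPI1 came to 47.6% of the reads of TPI1 itself, and the corresponding shares were 29.8% for BNIP3, 15.5% for LDHA, 10.7% for PGK1, 9.79% for LDHB and 7.84% for GAPDH. CA9 overlaps ARHGEF39, SLC16A3 overlaps CSNK1D, ANKRD37 overlaps UFSP2 and TPI1 overlaps SPSB2 on opposite strands. PFKFB4 overlaps UCN2 and PGK1 overlaps ATP7A on the same strand. Further overlaps are not listed here. Whether the counting used the strand is not given in the sources used here, so the levels of these genes are uncertain to that extent. A same-strand overlap is not resolved by the strand in either case.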

How the data were processed

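Strand-specific polyA libraries of H460 cells (3 siNT, 3 siHKlincR1) were sequenced as 75 bp paired-end reads. The authors counted reads with featureCounts (Rsubread) on the gene models of Ensembl v74. The authors deposited 1 RPKM value per gene and library. The submitters' processing notes name hg19/GRCh37 and CASAVA 1.8.2. The aligner is not given in the sources used here.

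The 33 genes and the other lists were chosen with earlier results of these data known. All 33 were named, with HKlincR1 and, of each other list, the at most 3 tested genes with the largest estimates and any gene called. HIF1A was named besides, outside this rule. Not every gene it selects is reported. Identifiers were matched through GENCODE v44 on GRCh37 (55538 of 57773).

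limma 3.58.1 in R 4.3.3 (lmFit, and eBayes with a trend) was fitted across all genes on log2(RPKM + 0.1), keeping the 15451 genes that averaged 0.5 RPKM or more, with Benjamini-Hochberg adjustment over all of them. A fold change on this scale understates that of low genes. Library totals and reads were worked back from the RPKM values, and 100% of the nonzero values came out whole within 0.01 reads. A floor of 3 reads was used, and intervals on reads would cover counting error only. The fit and the recovery were tested on simulated data.

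The titles number the replicates from 1 to 3 in each group. Deviations from the group means correlated at 0.142, 0.137 and 0.266 between same-numbered libraries, each over 0.1, so the numbers were taken to pair the libraries and the block fit is given beside the results it alters. The correlations between different numbers ran from -0.209 to 0.113. The highest, of siNT replicate 1 with siHKlincR1 replicate 2, was also over 0.1, so this threshold alone does not single out the pairs. Alternatives changed the pseudocount, filter, scaling, variance model, test, pairing and call rule, and left out each library in turn. For genes outside the 33 they were added after seeing the data. The 3′ UTRs are those of 1 transcript per gene on GRCh37, and the promoters are those of RefSeq (GRCh38.p14).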

Additional observations from a re-analysis of the deposited data

How the results depend on the processing

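No member was called under any of the alternatives run, which included an adjusted p under 0.1. Of 494 member estimates under alternatives, 485 kept their direction and 9 reversed, all when 1 library was left out and all for 3 genes near 0. With 1 library left out, log2 fold changes ran from -0.0476 (without siHKlincR1 replicate 1) to 0.0242 (without siNT replicate 1) for PFKL, from -0.181 (without siNT replicate 3) to 0.0691 (without siNT replicate 1) for PDK1, and from -0.0896 (without siNT replicate 3) to 0.278 (without siHKlincR1 replicate 3) for ADM. The fold change of HKlincR1 kept its call throughout, from -2.79 (voom) to -1.61 (pseudocount of 1 RPKM).

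Counts over all genes moved more. The 55 genes called lower became 34 with no filter, 16 with no variance trend, 84 with voom and 125 with the replicate block, and 7 to 314 with 1 library left out. The 1 gene called higher became 0 at a pseudocount of 0.01 RPKM, 12 with no filter, 3 with voom, 79 with the block, 2 with no fold threshold and 5 at an adjusted p under 0.1, and 0 to 204 with 1 library left out. The highest of these counts, 314 and 204, came without siHKlincR1 replicate 3. The causes of these moves were not tested. With no filter, the adjustment was over 31287 genes, against 15451 in the main fit. By the full rule the block changed no call of a gene named here. For 13 members the interval of the fold change reached past 1.5-fold, which limits what 3 libraries a group show of them.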
